A study of Mus musculus with 6 samples.

Results

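The genes described here encode the proteins of the cytosolic ribosome. They are the 76 rows, of 52550 in the deposited count table, whose symbol is Rpl or Rps followed by digits and at most 1 letter a, x or y, together with Rplp0, Rplp1, Rplp2 and Rpsa; 46 belong to the large subunit and 30 to the small subunit. Pseudogene rows were not members, nor were Rps3a1 and Fau, whose symbols the rule does not take, nor the tissue-restricted paralogs. RNA was sequenced from alveolar type II (AT2) cells, which make the lung's surfactant, in 3 libraries labelled Grp78KO and 3 labelled Control. The comparison asks what differs when AT2 cells lose Grp78, a chaperone that folds proteins in the endoplasmic reticulum. The Grp78KO libraries came from C57BL/6 mice of genotype Sftpc+/creERT2; Grp78f/f given tamoxifen. The Control libraries came from C57BL/6 mice with the same Cre allele and the same floxed alleles whose genotype label says without tamoxifen, so the tamoxifen and the deletion cannot be told apart. The day label nevertheless places all 6 samples, controls included, at 10 days from a tamoxifen injection, and whether the controls received any is therefore in doubt. The Cre sits at the surfactant protein C locus, a marker gene of AT2 cells in the adult lung. Cells negative for CD45 and positive for EPCAM were taken by magnetic sorting from lungs digested with dispase. Whether the replicates came from separate mice is not labelled, and p-values therefore reflect the spread among these libraries, which may be technical.

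Each cytosolic ribosome holds 1 copy of nearly every one of these proteins, bound to the ribosomal RNAs. The large subunit forms the peptide bond and carries the tunnel through which the new chain leaves, and the small subunit reads the messenger RNA. In mammals the messenger RNAs of ribosomal proteins begin with a C followed by a run of pyrimidines, the terminal oligopyrimidine (TOP) tract, through which their translation is controlled by growth signals. In AT2 cells much of the output of the ribosomes enters the endoplasmic reticulum, where the surfactant proteins are folded.

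Promoters are shown for the 4 members with the lowest adjusted p and the 4 with the lowest log2 fold. Both sets were taken among the members named in this text by rule that have a single RefSeq promoter entry. Rps19 and Rpl21, whose log2 folds lay below that of Rpl37a, did not meet this condition. The sets are shown because the expression values below separate these 2 sets and the TOP tract lies at the start site. Each runs from 50 bases before to 25 bases from the start annotated by RefSeq, 5′ to 3′ on the gene's strand, with GRCm38.p6 coordinates. Capitals mark the longest run made of a C and at least 7 further bases that are each C or T, and a sequence with no capitals has no such run in the bases printed. None of the marked runs covers the annotated start. Those of Rps16 and Rpl31 lie before it and those of Rps12 and Rpl11 after it. Whether any of them is a TOP tract was not tested.
Rps12, chr10:23787185-23787259, minus strand: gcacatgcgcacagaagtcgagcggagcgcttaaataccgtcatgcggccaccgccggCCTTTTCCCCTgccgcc
Rpl12, chr2:32961662-32961736, plus strand: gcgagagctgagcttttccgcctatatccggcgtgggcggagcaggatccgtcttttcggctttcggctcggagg
Rps16, chr7:28350639-28350713, plus strand: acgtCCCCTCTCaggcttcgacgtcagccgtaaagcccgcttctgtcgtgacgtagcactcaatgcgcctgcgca
Rps2, chr17:24720013-24720087, plus strand: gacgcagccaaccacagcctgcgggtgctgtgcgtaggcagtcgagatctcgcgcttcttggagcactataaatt
Rpl31, chr1:39367801-39367875, plus strand: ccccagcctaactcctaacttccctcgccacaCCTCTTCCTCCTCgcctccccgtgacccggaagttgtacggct
Rpl6, chr5:121204451-121204525, plus strand: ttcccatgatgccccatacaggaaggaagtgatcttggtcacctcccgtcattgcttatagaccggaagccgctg
Rpl37a, chr1:72711210-72711284, plus strand: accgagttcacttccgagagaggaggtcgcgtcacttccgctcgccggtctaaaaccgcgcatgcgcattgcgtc
Rpl11, chr4:136053369-136053443, minus strand: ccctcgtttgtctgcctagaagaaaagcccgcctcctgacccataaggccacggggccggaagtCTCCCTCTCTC

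RefSeq promoters were given for 56 of the 76 members. A pyrimidine run as defined above lay within 50 bases on either side of the start, on the gene's strand, in 48 of these 56 (85.7%), against 32.0% of all 27025 genes with a promoter. On the other strand the same search found a run in 21.4% of the members and in 34.4% of all genes. Split by the expression values given below, it was present in 34 of the 42 that were called higher with the replicate number in the fit (81.0%) and in 14 of the 14 that were not. The letters CCGGAAG, a core bound by ETS-family factors, were present on either strand of the 300 bases in 23 of 56 members (41.1%) and in 9.93% of all promoters. They lie beside the start in the Rpl31, Rpl6 and Rpl11 sequences above. Over all members with a promoter, they were present in 19 of the 42 called higher with the block (45.2%). Of the 14 not called, 4 had them (28.6%). The E-box CACGTG was present in 10.7% of members and in 8.09% of all promoters. These are matches of letters, and annotated starts can lie away from the start used in these cells.

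The libraries labelled Grp78KO held 110770711 to 128129307 counts and the Control libraries 131235053 to 149520306, and every member had at least 1271 counts in every library. Hspa5, which encodes Grp78, was higher in the libraries labelled knockout, at 9262, 9180 and 3809 CPM (counts scaled to a common library total) in libraries 1, 2 and 3, against 1355, 1289 and 925 CPM in Controls 1, 2 and 3 (log2 fold 2.64, SE 0.361, edgeR adjusted p = 0.00208). A count over the whole gene cannot show whether its floxed exons were removed, and directions below are between libraries as labelled. The 10 AT2 markers summed to 40707 to 51864 CPM in the Grp78KO libraries and 105169 to 121862 CPM in Controls, and all 10 were called lower. The 8 fibroblast markers summed to 1175 to 1332 CPM in the Grp78KO libraries and 218 to 575 CPM in Controls, and all 8 were called higher. The leukocyte list without Lyz1, a gene AT2 cells share, summed to 14.1, 14.6 and 94.4 CPM in Grp78KO libraries 1, 2 and 3, against 9.95 to 12.6 CPM in Controls, with 1 marker at 0 in Grp78KO library 2 and none at 0 elsewhere. The 5 erythroid markers summed to 1353, 808 and 320 CPM in Grp78KO libraries 1, 2 and 3 and 653, 417 and 560 CPM in Controls, the 6 endothelial markers to 423 to 719 CPM and 405 to 442 CPM, and the 5 airway markers to 28362 to 31700 CPM and 27295 to 50590 CPM. In bulk RNA, fewer cells of a type and less RNA per cell cannot be told apart, and the part of these other cells in the results below was not tested.

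Ribosomal protein genes took a larger share of the counts in every library labelled knockout than in any Control. They held 6.30%, 5.91% and 4.30% of the counts in Grp78KO libraries 1, 2 and 3, against 3.703%, 3.27% and 2.74% in Controls 1, 2 and 3. The means were 5.50% ± 1.06 in the Grp78KO libraries and 3.24% ± 0.482 in Controls (SD, n = 3 each). The large subunit took 3.27% ± 0.606 in the Grp78KO libraries and 1.97% ± 0.280 in Controls, and the small subunit 2.23% ± 0.456 in the Grp78KO libraries and 1.27% ± 0.203 in Controls. A share of counts also moves when other abundant genes change, and after scaling by TMM, which sets aside such genes, the groups overlapped. The summed level was 59376, 55054 and 37522 CPM in the Grp78KO libraries and 42629, 36080 and 28160 CPM in Controls, so that Grp78KO library 3 lay between Controls 1 and 2. The ratio of large-subunit to small-subunit counts was 1.44, 1.46 and 1.501 in the Grp78KO libraries and 1.52, 1.56 and 1.58 in Controls, so the small subunit's part was slightly larger in every Grp78KO library.

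**Figure D1:**
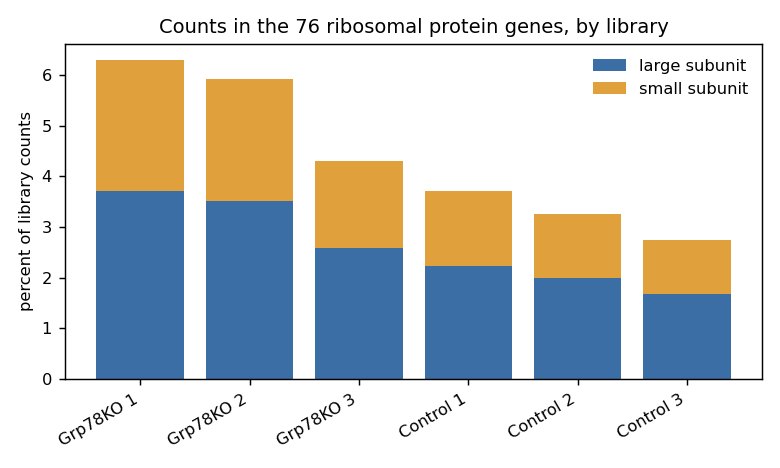
Percent of each library's counts that fell in the 76 ribosomal protein genes, with the large subunit below and the small subunit above, for 3 Grp78KO and 3 Control libraries. Every Grp78KO bar (4.30% to 6.30%) is taller than every Control bar (2.74% to 3.703%), and library 3 is the lowest in both groups.

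Most members moved together from library to library. The median correlation between 2 members over the 6 libraries was 0.954 over 2850 pairs, and the lowest was -0.203. This is a description in which all pairs share the same libraries and scaling. Relative to the mean of the Controls, the median member lay at log2 differences of 0.79, 0.69 and 0.10 in Grp78KO libraries 1, 2 and 3 and at 0.28, 0.05 and -0.32 in Controls 1, 2 and 3. Grp78KO library 1 was the highest of the 6 libraries for 66 members and Control 1 for the other 10. Control 3 was the lowest of the 6 for 73 members and Grp78KO library 3 for 3. Library 3 was the lowest of its own group for 76 of 76 members in the Grp78KO group and for 76 of 76 in the Control group, against 40.3% and 40.0% of the other tested genes. Grp78KO library 3 was above Control 1 for 18 members, above Control 2 for 47 and above Control 3 for 73. The 2058 other tested genes with coding sequences under 600 bases, a comparison chosen after these values were seen, had median log2 differences of 0.19, 0.13 and -0.01 in the Grp78KO libraries and 0.11, 0.01 and -0.11 in Controls. Here too library 1 was the highest and library 3 the lowest of each group, with smaller differences, and the part of transcript length in the members' values was not tested.

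Tested against all genes, ribosomal protein genes were higher in the libraries labelled knockout or not called, and edgeR called none of the 76 lower. All 76 passed the filter on low counts. With group as the only term, 22 were called higher at an adjusted p under 0.05, which is 28.9% of the members against 18.0% of all 18849 tested genes; 18.8% of those were called lower. At an unadjusted p under 0.05, 41 were higher (53.9%, against 23.8% of all tested genes) and 0 lower (against 24.2%). DESeq2 called 45 higher (59.2%, against 21.4% of all tested genes) and 0 lower. With limma-voom it was 21 higher (27.6%, against 17.3%) and 0 lower. The log2 fold was positive for 69 members and negative for 7, with a median of 0.53 and a range of -0.24 to 1.51, against a median of 0.02 over all tested genes. By subunit, 11 of 46 large-subunit members (median 0.51) and 11 of 30 small-subunit members (median 0.58) were called. With the replicate number as a block, so that libraries of the same number are compared with each other, 58 were called higher and 0 lower, which is 76.3% of the members against 21.9% of all tested genes, of which 22.8% were lower. The groups did not overlap for 18 members, all of them with every Grp78KO library higher, and this share of 23.7% was close to the 25.0% of all tested genes; every Grp78KO library was lower for 26.6% of those and for 0 members.

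The count of calls without the block depended on single libraries. It was 2 without Grp78KO library 1, without Grp78KO library 2 or without Control 2, in each case Rpl12 and Rps12; these 2 are 2.63% of the members, against 10.1%, 9.82% and 8.67% of all tested genes called higher in the same 3 settings. It was 51 without Grp78KO library 3, 67.1% against 22.04% of all tested genes, and 21 without Control 1, 27.6% against 11.8%. Without Control 3 it was 3 higher (Rpl12, Rps12 and Rps16) and 1 lower (Rpl31, log2 fold -0.39, edgeR adjusted p = 0.0432); the 3 higher are 3.95% of the members, against 14.1% of all tested genes. The share of members called higher was thus below that of all tested genes in 4 of the 6 settings that leave out 1 library. Without both libraries numbered 3, it was 59 higher and 2 lower, Rpl31 (-0.34) and Rpl6 (-0.21). The 59 are 77.6% of the members, against 28.3% of all 18895 genes tested in that setting, of which 5226 were called lower. Scaling by library size alone gave 57 higher, 75% of the members against 32.99% of all tested genes, and moved the median of all genes to 0.27.

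**Figure D2:**
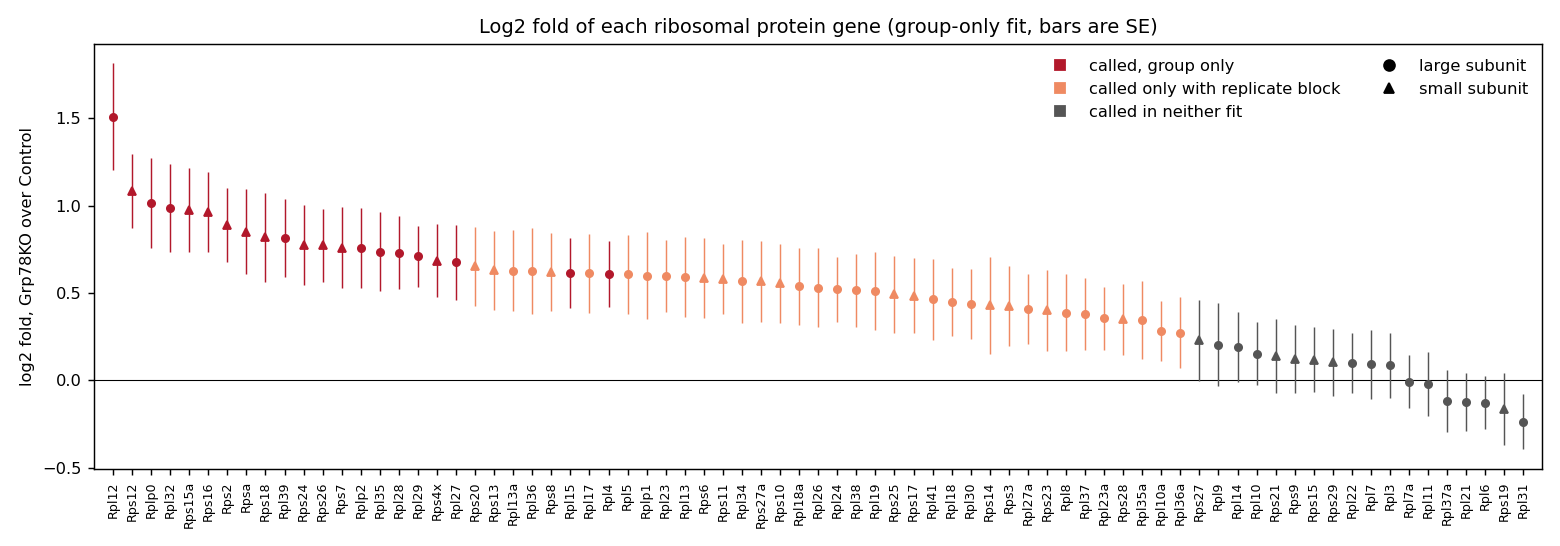
Log2 fold (Grp78KO over Control, group-only edgeR fit) of 75 of the 76 members, ordered from highest to lowest, with bars of 1 SE. Circles are large-subunit and triangles small-subunit genes; the folds run from 1.51 for Rpl12 to -0.24 for Rpl31, with the genes called by group alone at the left, 36 called only with the replicate block mostly in the middle, and 18 called in neither at the right.

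The P stalk is the flexible arm of the large subunit that recruits elongation factors. Rpl12, which anchors its base, had the largest log2 fold of all members. Its gene lies at chr2:32961559-32965345 on the plus strand (mm10) and hosts 1 annotated snoRNA gene. Rpl12 had 1272, 1172 and 581 CPM in Grp78KO libraries 1, 2 and 3, against 430, 356 and 276 CPM in Controls 1, 2 and 3. Every Grp78KO library exceeded every Control, and the rise of 2.85-fold (log2 fold 1.51, SE 0.305, edgeR adjusted p = 0.00859) remained called after leaving out any 1 library. Rplp0, the stalk protein that binds ribosomal RNA, had 2919, 2650 and 1612 CPM in the Grp78KO libraries and 1445, 1181 and 930.5 CPM in Controls. These groups did not overlap either, and Rplp0 rose by a log2 fold of 1.01 (SE 0.258; edgeR test, adjusted p = 0.0198). Rplp1 and Rplp2 form the dimers at the tip of the stalk. Rplp2 had 541, 499 and 327 CPM in the Grp78KO libraries and 323, 280 and 206 CPM in Controls, and rose by a log2 fold of 0.76 (SE 0.230; edgeR test, adjusted p = 0.0366). Rplp1 had 1060, 951 and 599 CPM in the Grp78KO libraries and 687, 597 and 438 CPM in Controls, and these groups overlapped. Its log2 fold was 0.60 (SE 0.248, edgeR adjusted p = 0.0934), and it was called with the block (adjusted p = 0.00513). These 4 genes had a median log2 fold of 0.89, in a grouping by position on the ribosome that was chosen after the values were seen.

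Of 9 genes at the peptide exit tunnel and its rim, in the same grouping by position, 3 were called with group alone and 7 with the block. These shares of 33.3% and 77.8% were near those of all members, 28.9% and 76.3%. Of all tested genes, 18.0% and 21.9% were called higher. Rpl39, a small protein that lines the tunnel, had 398, 361.5 and 236 CPM in the Grp78KO libraries and 224, 192 and 150 CPM in Controls. Its groups did not overlap and it rose by a log2 fold of 0.81 (SE 0.223; edgeR test, adjusted p = 0.0255). Rpl4, whose loop narrows the tunnel, rose by 0.61 (SE 0.188, edgeR adjusted p = 0.0382), and Rpl35, at the rim where nascent-chain factors dock, by 0.74 (SE 0.228, edgeR adjusted p = 0.0383). Rpl31 and Rpl22 were the 2 that neither fit called. Rpl31, another rim protein, is described further on.

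Rpl5 and Rpl11 enter the ribosome together with the smallest large-subunit RNA, and when free they bind the p53 regulator Mdm2; they had unlike values. Rpl5 had 1523, 1439 and 928 CPM in the Grp78KO libraries and 1012, 858 and 685 CPM in Controls. Its log2 fold was 0.61 (SE 0.226, edgeR adjusted p = 0.0699; with the block, adjusted p = 0.007). Rpl11 had 554, 502 and 416 CPM in the Grp78KO libraries and 610, 486 and 397 CPM in Controls. The groups of Rpl11 overlapped from end to end, and its log2 fold was -0.02 (95% interval -0.45 to 0.41, edgeR adjusted p = 0.942; with the block, 0.945). Rpl10, which joins the subunit late in the cytoplasm and sits near the peptidyl transferase centre, stood at a log2 fold of 0.15 (SE 0.180; edgeR test, adjusted p = 0.534; with the block, 0.307).

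On the small subunit, the genes whose products meet the messenger RNA included both called and uncalled members. Rps2, at the entry channel, had 1422, 1301 and 866 CPM in the Grp78KO libraries and 739, 664 and 534 CPM in Controls. Its groups did not overlap, and it rose by a log2 fold of 0.89 (SE 0.215; edgeR test, adjusted p = 0.0164). Rps9, on the same channel, had a log2 fold of 0.12 and was called in neither fit. At the exit channel, Rpsa had 1360, 1245 and 762 CPM in the Grp78KO libraries and 738, 631 and 497 CPM in Controls, and rose by 0.85 (SE 0.244, edgeR adjusted p = 0.0296). Rps26, which in yeast contacts the message just before the start codon, rose by 0.77 (SE 0.209, edgeR adjusted p = 0.0242), and the other 2 exit-channel genes, Rps14 and Rps28, were called only with the block.

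In the head of the small subunit, 3 of 8 genes were called with group alone and 5 with the block. These shares were 37.5% and 62.5%, against 28.9% and 76.3% of all members and 18.0% and 21.9% of all tested genes. Rps12 had 29.6, 29.2 and 18.0 CPM in the Grp78KO libraries and 13.2, 13.3 and 9.73 CPM in Controls (log2 fold 1.09, SE 0.213, edgeR adjusted p = 0.00762), a row whose level is uncertain because of a pseudogene row described further on. Rps18, next to the bound tRNAs, rose by 0.82 (SE 0.255, edgeR adjusted p = 0.0395). Rps27a, made as a fusion with ubiquitin, stood at 0.57 on the log2 scale (edgeR adjusted p = 0.0901; with the block, 0.00576). Rps19, a head protein mutated in the human disease Diamond-Blackfan anaemia, was called in neither fit.

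Some members outside these sites were called too. Rps16, whose tail reaches the decoding centre, rose by a log2 fold of 0.96 (SE 0.229; edgeR test, adjusted p = 0.0154), Rps15a by 0.98, Rpl32 by 0.99 and Rpl29 by 0.71, each with groups that did not overlap and adjusted p of 0.0178 to 0.0201 for the last 3. Rps4x, the X-linked small-subunit gene, had 1065, 1018 and 693 CPM in the Grp78KO libraries and 676, 588 and 462 CPM in Controls, and rose by 0.69 (SE 0.209, edgeR adjusted p = 0.0366). Rps6, the substrate of the S6 kinases, had 1212, 1156 and 758 CPM in the Grp78KO libraries and 827, 720 and 536.5 CPM in Controls, with a log2 fold of 0.59 (SE 0.227; edgeR test, adjusted p = 0.0786; with the block, 0.0049). Rpl41 had a log2 fold of 0.46, Rpl13a 0.63, Rps14 0.43 and Rpl10a 0.28, and these 4 were called only with the block.

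The genes at the other end of the order had levels in the libraries labelled knockout that lay within or below the range of the Controls. Rpl31, at chr1:39367842-39371911 on the plus strand (mm10), had 372, 360 and 339 CPM in Grp78KO libraries 1, 2 and 3, against 493, 438 and 331 CPM in Controls 1, 2 and 3. Its 3 Grp78KO values lay close together between the lowest Control and the next, and its log2 fold was -0.24 (95% interval -0.60 to 0.13, edgeR adjusted p = 0.269). Rpl6, a large-subunit surface protein, had 571, 543 and 506 CPM in the Grp78KO libraries and 676, 616 and 478 CPM in Controls (log2 fold -0.13, 95% interval -0.48 to 0.22). Rps19 had 768, 704 and 516 CPM in the Grp78KO libraries and 876, 774 and 576 CPM in Controls (log2 fold -0.16, 95% interval -0.64 to 0.32). All 3 Rps19 pairs of the same number were lower in the Grp78KO library. Rpl21 and Rpl37a had log2 folds of -0.13 and -0.12, with intervals that included 0. The upper ends of these intervals lie below the log2 folds of Rpl12 and Rplp0, but the intervals are too wide to say that these genes did not change. Scaled by library size alone, which moves the median of all genes to 0.27, the 6 lowest, Rpl11 among them, had log2 folds of 0.03 to 0.24, below that median as they were below it with TMM.

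**Figure D3:**
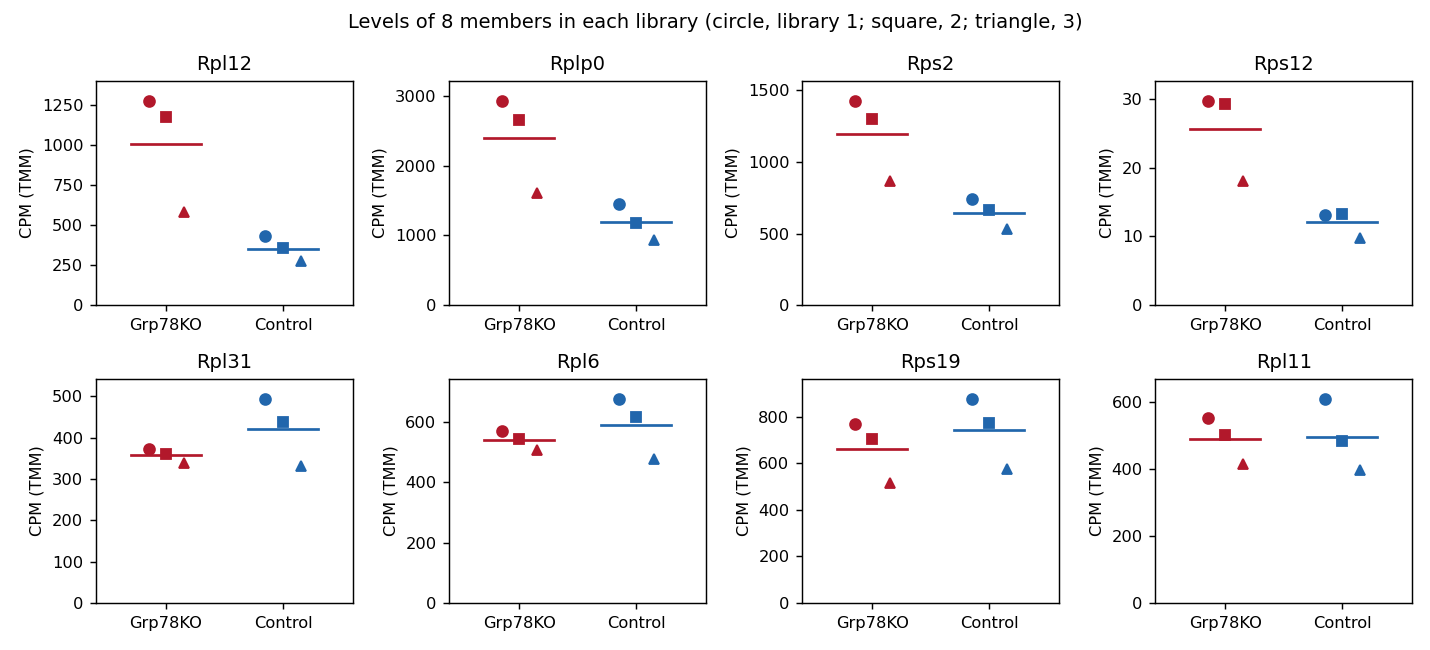
CPM (scaled by TMM) of 8 members in each library, Grp78KO left and Control right; symbols mark the library number and lines the group means. In the upper row (Rpl12, Rplp0, Rps2, Rps12) every Grp78KO library is above every Control, and in the lower row (Rpl31, Rpl6, Rps19, Rpl11) the groups overlap.

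To ask whether members changed relative to one another, the fit was repeated with each library scaled to its summed ribosomal protein counts, so that a log2 fold of 0 means a change equal to that of the total. With group as the only term, 1 member was called higher and 0 lower: Rpl12, at a relative log2 fold of 0.97 (edgeR adjusted p = 0.0178), against 2.94% of all tested genes higher and 13.9% lower on this scale. Rpl12 lost this call without Grp78KO library 2 (edgeR adjusted p = 0.0839) or without Control 2 (0.0706), which left 0 calls. Without Grp78KO library 3 there were 9 members higher and 13 lower, against 786 and 8655 of the 19247 genes tested in that setting. Before adjustment, 5 members had a p under 0.05 and were higher, and 6 were lower, which is 6.58% and 7.89% of the members against 5.57% and 32.8% of all tested genes. With the replicate block, 13 members were called higher and 18 lower, which is 17.1% and 23.7% of the members against 8.1% and 51.9% of all tested genes. The 18 lower ones are the same 18 that the block did not call against all genes: Rpl31, Rps19, Rpl21, Rpl6, Rpl37a, Rpl11, Rpl7a, Rpl3, Rpl7, Rpl22, Rps29, Rps9, Rps15, Rpl10, Rps21, Rpl14, Rpl9 and Rps27. Both fits use the same counts, so this is no second line of evidence. The 13 higher ones included Rpl12, Rps12, Rplp0, Rpl32, Rps15a, Rps16, Rps2, Rpsa, Rps18, Rpl39, Rps24 and Rps26. Of the 13, 9 (69.2%) are small-subunit genes, which make up 39.5% of all members, and of the 18, 12 (66.7%) are large-subunit genes, which make up 60.5%.

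The order of the members was alike in the 3 comparisons of same-numbered libraries. In pairs 1, 2 and 3 the Grp78KO library was higher for 66, 71 and 73 members, with median log2 differences of 0.49, 0.64 and 0.44. Across the 76 members, the log2 differences correlated at 0.976 between pairs 1 and 2, 0.903 between pairs 1 and 3 and 0.945 between pairs 2 and 3, and no library is in more than 1 pair. Across all tested genes the same correlations were 0.790, 0.604 and 0.635. Genes are not independent replicates, and no p is given. Rpl12 had log2 differences of 1.56, 1.72 and 1.07 in the 3 pairs, and Rpl31 had -0.41, -0.28 and 0.03. The libraries numbered 3 were low for the members in both groups, and the median difference within their pair, 0.44, lay near the 0.49 of pair 1. Without both libraries numbered 3, 14 members were called higher and 18 lower relative to the ribosomal protein total. Of all 18895 genes tested in that setting, 1781 were called higher and 9909 lower. Of the 32 member calls, 31 were also made with the block in the same direction. Both fits use the libraries numbered 1 and 2, so this is no separate evidence.

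**Figure D4:**
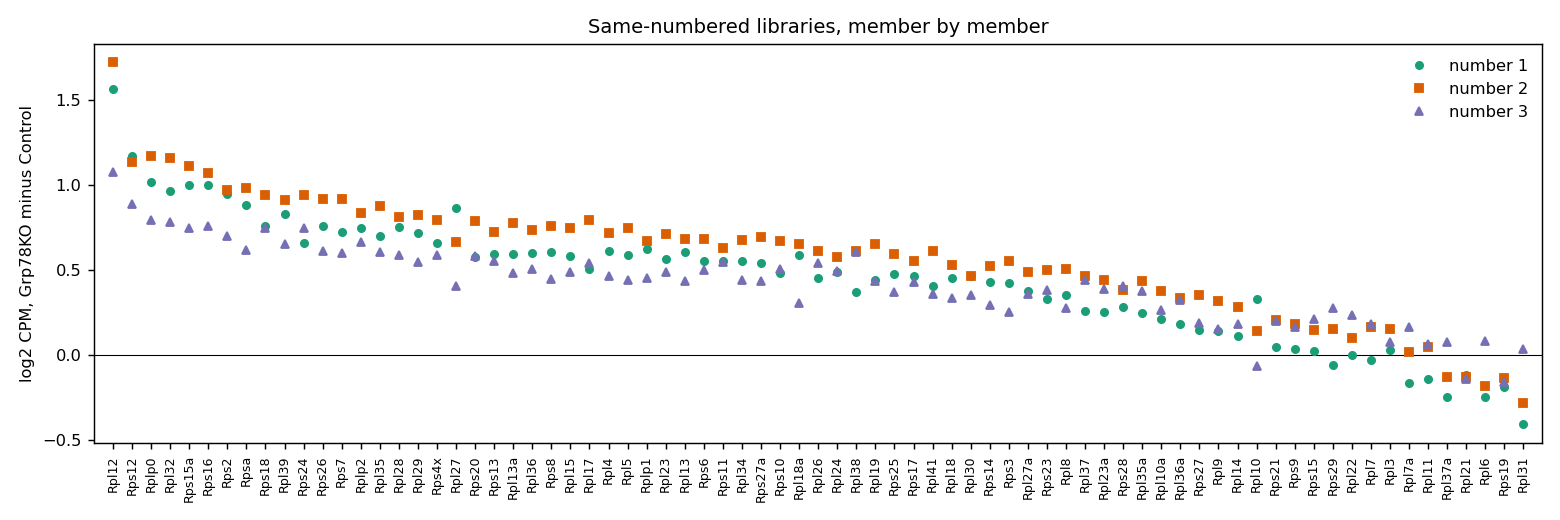
Log2 CPM of the Grp78KO library minus the Control library of the same number for 75 of the 76 members, in the order of the log2 fold; circles, squares and triangles are pairs 1, 2 and 3. The 3 pairs run down the members together, and most members lie above 0 in each.

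Levels were compared between genes per kilobase of coding sequence. The median member had 1122 CPM per coding kilobase, averaged over the 6 libraries. On this scale the highest were Rpl41 at 11414, Rps14 at 2636, Rplp1 at 2111 and Rpl13a at 1997. The coding sequence of Rpl41, 75 bases, is shorter than a 150-base read, so dividing by it overstates the level of that gene. The lowest were Rps12 at 47.6, Rpl27 at 78.1, Rpl29 at 304.1 and Rpl10a at 543. The places of Rps12 and Rpl27 depend on how reads were shared with a pseudogene row: with the pseudogene rows added, they stood at 1418 and 838 CPM per coding kilobase. Across members, Spearman's rho between the log2 fold and coding length was 0.03, and between the log2 fold and the mean CPM in Controls -0.16, both descriptions over 76 genes of the same libraries. The 29 members that host an annotated snoRNA gene had a median log2 fold of 0.61 with 9 called higher (31.0%). The 47 that host none had 0.49 with 13 called higher (27.7%), against 18.0% of all tested genes.

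For 4 members a row of a near-identical pseudogene held many counts, and since how the reads were shared out is not given, their own levels are uncertain. The table holds 273 rows of pseudogenes named after a member, spread over 58 members. In 72 members these rows held at most 0.739% of the member's own counts. Pseudogene rows under other names were not searched, so whether those 72 shared reads with such rows was not tested. For Rps12 they held 28.7 times its counts, for Rpl27 9.71 times, for Rpl10 1.72 times and for Rpl34 0.387 times, nearly all in a single row each: Rps12-ps3, Rpl27-ps3, Rpl10-ps3 and Rpl34-ps1. With the pseudogene counts added to each member, an alternative chosen after these values were seen, Rps12 had 859, 789 and 487 CPM in the Grp78KO libraries and 485, 428 and 321 CPM in Controls. It remained called at a smaller log2 fold of 0.79 (SE 0.242; edgeR test, adjusted p = 0.0372), although the groups now all but touched. Rpl27 had a log2 fold of 0.57 on this count and was no longer called with group alone (edgeR adjusted p = 0.0559; with the block, 0.00343), and Rpl10 had 0.06 (edgeR adjusted p = 0.841). The 4 pseudogene rows with the lowest adjusted p included Rps2-ps6, at 7.53, 7.50 and 0.567 CPM in Grp78KO libraries 1, 2 and 3 and 0.412, 0.236 and 0.191 CPM in Controls (log2 fold 4.22, SE 0.937, edgeR adjusted p = 0.0137), at levels far below those of Rps2; this call was lost with limma-voom, with no filter, and without Grp78KO library 1 or Control 2. Of the 66 pseudogene rows tested, 7 were called higher and 1 lower, and with the block 7 higher and 0 lower; the share higher was 10.6% in both fits, against 18.0% and 21.9% of all tested genes.

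Other lists of the translation machinery were set beside the members. Of 55 genes of ribosome biogenesis, which make and assemble ribosomal RNA in the nucleolus, 26 were called higher and 2 lower (Ubtf at -0.42 and Sbds at -0.33), with a median log2 fold of 0.50; the share higher was 47.3%, against 18.0% of all tested genes. With the block 39 were higher and 2 lower, 70.9% against 21.9% higher. Gnl3, the nucleolar GTPase nucleostemin, had 31.6, 33.1 and 21.1 CPM in the Grp78KO libraries and 12.2, 12.99 and 8.28 CPM in Controls, and rose by a log2 fold of 1.36 (SE 0.221; edgeR test, adjusted p = 0.00385). Rrp12 rose by 1.11, Ppan by 1.07 and Rrs1 by 0.90, each with groups that did not overlap. In this list library 3 was again the lowest Grp78KO library for these 4 genes. Of 19 elongation factor and other TOP genes, 4 were called higher and 1 lower, with a median of 0.23, and with the block 11 higher and 1 lower. The share higher was 21.1% with group alone, near the 18.0% of all tested genes, and 57.9% with the block, against 21.9%. Eef1a1, the elongation factor that delivers aminoacyl-tRNA, rose by 0.78 (SE 0.255, edgeR adjusted p = 0.0465), Pabpc1, the poly(A)-binding protein, by 0.66, Nap1l1 by 0.52 and the initiation factor gene Eif4b by 0.38. Hnrnpa1, a splicing regulator, fell by 0.30 on the log2 scale (edgeR adjusted p = 0.0361). Eef2, the translocation factor, had a log2 fold of 0.21 and was called in neither fit. Eef1a1, Hnrnpa1, Eif4b and Nap1l1 lost their calls without any 1 of several libraries, as did Sbds, while Ubtf lost its call without Control 2. Hnrnpa1 and Sbds lost their calls also with library size alone or upper-quartile factors, Ubtf with library size alone, and Hnrnpa1 and Eif4b with no filter on low counts. Leaving out 1 library gave 11 to 40 biogenesis genes and 1 to 7 elongation and TOP genes called higher, with the lowest counts without Grp78KO library 2 and the highest without Grp78KO library 3.

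Of 78 mitochondrial ribosomal protein genes, 13 were called higher and 2 lower, with a median log2 fold of 0.22, and with the block 44 higher and 4 lower. The share higher was 16.7% with group alone, near the 18.0% of all tested genes, and 56.4% with the block, against 21.9%. Leaving out 1 library gave 4 (without Control 2) to 39 (without Grp78KO library 3) called higher. Mrps18b had 51.3, 49.0 and 27.7 CPM in the Grp78KO libraries and 18.1, 16.5 and 11.1 CPM in Controls, a rise of 1.49 (SE 0.271, edgeR adjusted p = 0.00619). Mrps27 rose by 1.05 and Mrpl11 by 0.64, and Mrpl49 was the other gene called lower (-0.35), a call lost without any 1 of 4 libraries and with library size alone or upper-quartile factors. Mrps9 moved the other way, at 31.0, 29.8 and 30.6 CPM in the Grp78KO libraries and 52.9, 48.4 and 56.1 CPM in Controls, and fell by 0.78 on the log2 scale (SE 0.0858, edgeR adjusted p = 0.000964). Of the 10 rows of cytosolic paralogs outside the members, 6 were tested and 1 was called higher with group alone. This share of 16.7% was near the 18.0% of all tested genes. With the block it was 33.3%, against 21.9%. Rps27l, a copy of Rps27 that in human cells is induced by p53, had 207.5, 199.6 and 119.7 CPM in the Grp78KO libraries and 83.4, 68.4 and 57.9 CPM in Controls, and rose by 1.33 (SE 0.228, edgeR adjusted p = 0.00461). Rps27 itself stood at a log2 fold of 0.23 (SE 0.233; edgeR test, adjusted p = 0.47) and was called in neither fit. Rpl22l1, Rpl36al and Rps27rt had log2 folds of 0.31, -0.24 and 0.25 and were not called with group alone; with the block Rpl22l1 was also called (edgeR adjusted p = 0.0225).

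**Figure D5:**
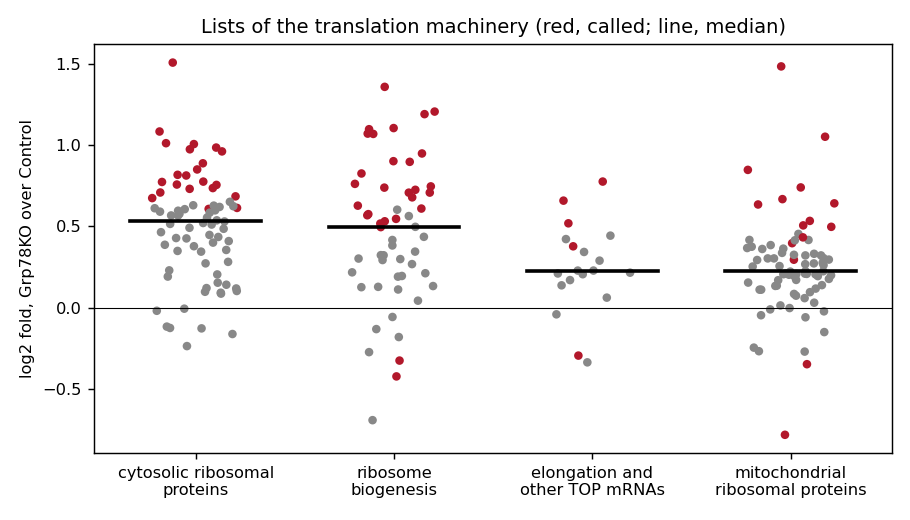
Log2 fold (Grp78KO over Control, group-only edgeR fit) of each gene in 4 lists, with called genes in red and the list median as a line; horizontal scatter within a list has no meaning. Medians were 0.53 for the 76 cytosolic ribosomal protein genes, 0.50 for ribosome biogenesis, 0.23 for elongation and other TOP genes and 0.22 for mitochondrial ribosomal proteins.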

How the data were processed

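The authors deposited whole-number read counts per gene symbol, unnormalised, from paired 150-base reads of NEBNext Ultra RNA libraries per the labels' protocols. The submitters' processing notes name mm10 and edgeR 3.7; how reads were aligned and counted is not given in the sources used here. Genes with 2 counts outnumbered those with 1 count by 1.63 to 1.76 times, a pattern that counting each mate could leave; this was not tested, and counting errors may exceed those the counts imply. Use of strand is not stated, so reads of antisense or overlapping genes may be mixed.

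All 52550 rows entered edgeR 4.0.16 (R 4.3.3): filterByExpr, TMM factors, robust dispersions and the quasi-likelihood F test, on group alone. Benjamini-Hochberg adjustment ran over the 18849 genes tested, with calls at an adjusted p under 0.05. CPM values are scaled by TMM, log2 folds are Grp78KO over Control, and each SE was taken as the absolute log2 fold over the root of F. The biological coefficient of variation in common was 22.3%. A second fit took each library's summed member counts as its size, with no further factor. Coordinates, coding lengths and hosted snoRNA genes came from GENCODE M21, in which all 76 members matched, and promoters from RefSeq on GRCm38.p6. The scripts were tested on simulated counts.

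Across genes, the log2 deviations of same-numbered libraries from their group means had correlations of 0.397, 0.203 and 0.337. All exceed 0.1, and the numbers were treated as pairs in an alternative fit with the replicate number as a block, whose values stand beside results it changes. What the numbers stand for is not labelled. Libraries 1 and 2 also correlated across groups, at 0.162 and 0.168, and those numbered 3 had correlations of -0.374 to -0.205 with the rest.

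Other alternatives were DESeq2 1.42.0, limma-voom 3.58.1, other scalings and filters, and leaving out libraries. The members and lists were chosen with earlier results of these data known. Genes were named by a rule (Hspa5; members by adjusted p, log2 fold, level per length and relative fit; 11 set members; 4 genes of each list). Members named beyond it, such as Rps18, Rps24, Rpl4, Rpl35, Rps9, Rps27, Rpl22 and Rps28, and the genes called lower in each list, Eef1a1 and Eef2 were chosen after their values were seen. The values of 1 member are not reported here; it is counted in all totals and left out of the plots that name each member.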

Additional observations from a re-analysis of the deposited data

How the results depend on the processing

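With group as the only term, 22 ribosomal protein genes were called higher and 0 lower. The count of those higher was 24 with median-ratio factors, 32 with upper-quartile factors, 57 with library size alone, 22 with TMM computed without these genes, 45 with DESeq2, 21 with limma-voom, 23 with no filter, 33 with a filter of 5 CPM in 3 libraries, 58 with the replicate block, 59 without both libraries numbered 3 (with 2 lower) and 21 with pseudogene rows added. The 24 with median-ratio factors were 31.6% of the members, against 18.7% of all tested genes. With upper-quartile factors the shares were 42.1% and 21.7%. With library size alone they were 75% and 32.99%, so the share of all tested genes also rose, from 18.0% with TMM. They were 30.3% and 10.5% with no filter, and 43.4% and 23.3% with the 5 CPM filter. Leaving out 1 library gave 2 to 51 higher and 0 to 1 lower. In these settings the members' median log2 fold exceeded that of all genes, by 0.51 to 0.57 with all 6 libraries and by 0.37 to 0.72 without 1 or 2.

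Over all genes, 3391 were called higher and 3547 lower. Library size alone gave 6218 and 1343 (82.2% of calls higher, against 48.9%), and upper-quartile factors 4091 and 2825 (59.2%). Without both libraries numbered 3 it was 5355 and 5226, and leaving out 1 library gave 1684 to 4242 higher and 1881 to 4306 lower. The block gave 4125 and 4290.

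Relative to the ribosomal protein total, 1 member was called higher and 0 lower. The block gave 13 and 18, the setting without both libraries numbered 3 gave 14 and 18, the median ratio over members 1 and 1, and leaving out 1 library 0 to 9 higher and 0 to 13 lower. Of all tested genes, 2.94% were called higher and 13.9% lower with group alone, and 8.1% and 51.9% with the block.

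Among named genes the sign turned for the following values near 0. With library size alone, which moves the median of all genes to 0.27, the log2 fold was 0.028 for Rpl31, 0.097 for Rps19, 0.14 for Rpl6, 0.13 for Rpl21, 0.15 for Rpl37a, 0.24 for Rpl11 and 0.020 for Rpl36al. Rpl11 was at 0.056 with upper-quartile factors and 0.019 with the 5 CPM filter, and leaving out 1 library gave -0.16 to 0.14 for Rpl11 and -0.28 to 0.023 for Rpl37a; the cause was not tested. The replicate block changed no call among named genes beyond those given with it above, apart from Rps2-ps5, which it no longer called.

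With 3 libraries a group, differences the size of the members' median (0.53) passed the test for some members and not for others: their SE ran from 0.15 to 0.305. A member that was not called is not shown to be unchanged. Adding the pseudogene rows to the members was the alternative chosen after seeing the data.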
